A study of Mus musculus with 9 samples.

Results

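The monocytes compared here came from the blood of mice that lack the chemokine CCL2 and of wild type mice. All arrays carrying the genotype label Ccl2-/- (3 arrays) and all arrays labelled wild-type (3 arrays) were taken, 6 of the 9 arrays of the series, and they were described across all 19938 genes that the array annotation names singly. The Ccl2-/- mice carried a targeted deletion of Ccl2 in the Balb/c strain and the wild type mice were Balb/c without it. Neither group was treated, and all mice were tumor-free adults aged 14 to 18 weeks. Each array held RNA from the pooled blood of 5 mice, so that variation between single mice is not seen and every p value below measures the spread between pools. Monocytes were obtained on magnetic columns, by retaining cells labelled for CD4, CD8, B220, Ly-6G, MHC II or CCR3 and then collecting the CD11b-positive cells of the flow-through. The 3 Ccr2-/- arrays, from Balb/c mice of the same ages with a targeted deletion of the CCL2 receptor, are used only to see which differences were particular to Ccl2-/- monocytes and to share in the estimate of the spread.

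CCL2 is a secreted chemokine that acts through the receptor CCR2. Mouse blood holds Ly-6Chi monocytes, which carry CCR2 and depend on it to leave the bone marrow, and Ly-6Clo monocytes, which have little CCR2 and patrol the vessel wall. The comparison asks how the RNA of circulating monocytes differs when the ligand is missing from the whole animal while the receptor gene is intact.

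Expression was read on Affymetrix Mouse Gene 1.0 ST arrays, as a linear intensity per transcript cluster, and values are given as log2 intensities. The median intensity was 335.0 and 345.5 in Ccl2-/- replicates 3 and 2 and 324.1 to 355.1 in wild type, but 430.8 in Ccl2-/- replicate 1. This excess was not spread evenly over the genes. With the genes divided by mean level into 10 groups of equal size, replicate 1 lay above the wild type mean by a median of 0.40 on the log2 scale in level group 1, the lowest, and by 0.33 to 0.40 in level groups 2 to 6. The excess was 0.10 in level group 7 and no more than 0.01 in the top 3 level groups. The median change of all genes in Ccl2-/- against wild type was 0.08 as deposited, −0.03 after each array was centred on its median, and 0.00 in the deposited values without replicate 1. Centring takes 0.11 from every log2 change, so that the 5982 genes of the top 3 level groups, whose median change was 0.01, moved to −0.11. Results are therefore given with and without centring.

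**Figure D1:**
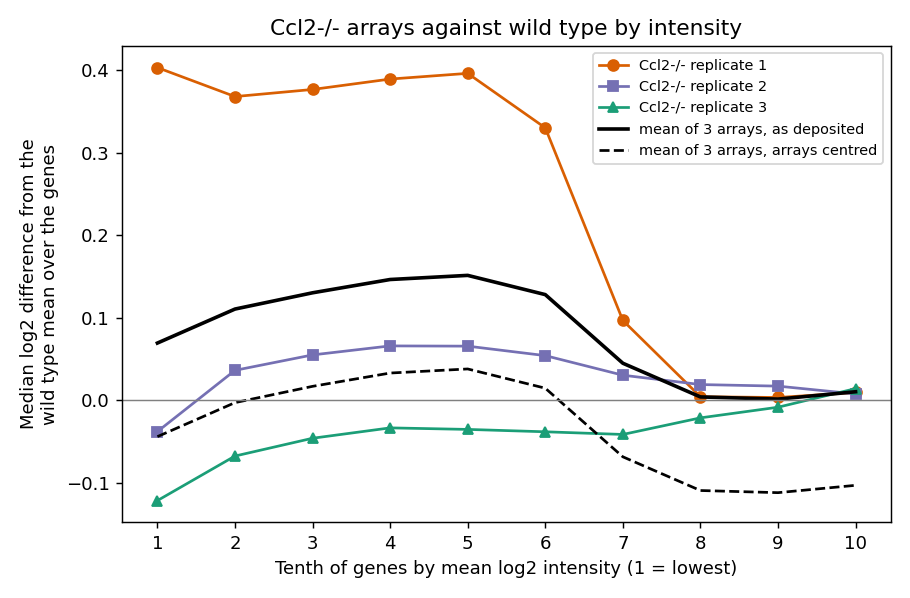
The x axis gives the 10 level groups of the genes by mean log2 intensity, and the y axis the median log2 difference from the wild type mean. Coloured lines are the 3 Ccl2-/- arrays and black lines their mean before (solid) and after (dashed) centring; replicate 1 lies 0.33 to 0.40 above wild type in the lower 6 level groups and within 0.01 of it in the top 3.

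Against wild type, limma called 32 of the 19938 genes in Ccl2-/- monocytes at an adjusted p under 0.05 (0.16%). Of these 15 rose (0.0752%) and 17 fell (0.0853%). Among them 4 rose and 3 fell by more than 2-fold. The integrin subunits Itgb3 and Itga1 changed in opposite directions, and the chaperones Hsph1 and Hsp90aa1 both rose. No called gene lay in the lower 3 level groups and 16 lay in the top 3. With centring 10 genes rose (0.0502%) and 16 fell (0.0802%), 0.13% together, and 20 of the genes were called both ways. All 32 kept their direction in each of 23 alternative fits. That adds little, because the Ccl2-/- and wild type arrays overlapped in none of the 32. The number called depended on single arrays. Leaving out Ccl2-/- replicate 1 gave 36 calls, replicate 2 gave 6 and replicate 3 gave 476. For wild type the same step gave 6, 8 and 9 calls in replicate order, and for Ccr2-/- 18, 15 and 18. When only the 6 arrays compared were fitted, 2 genes were called, Mid1 and Dhx40.

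**Figure D2:**
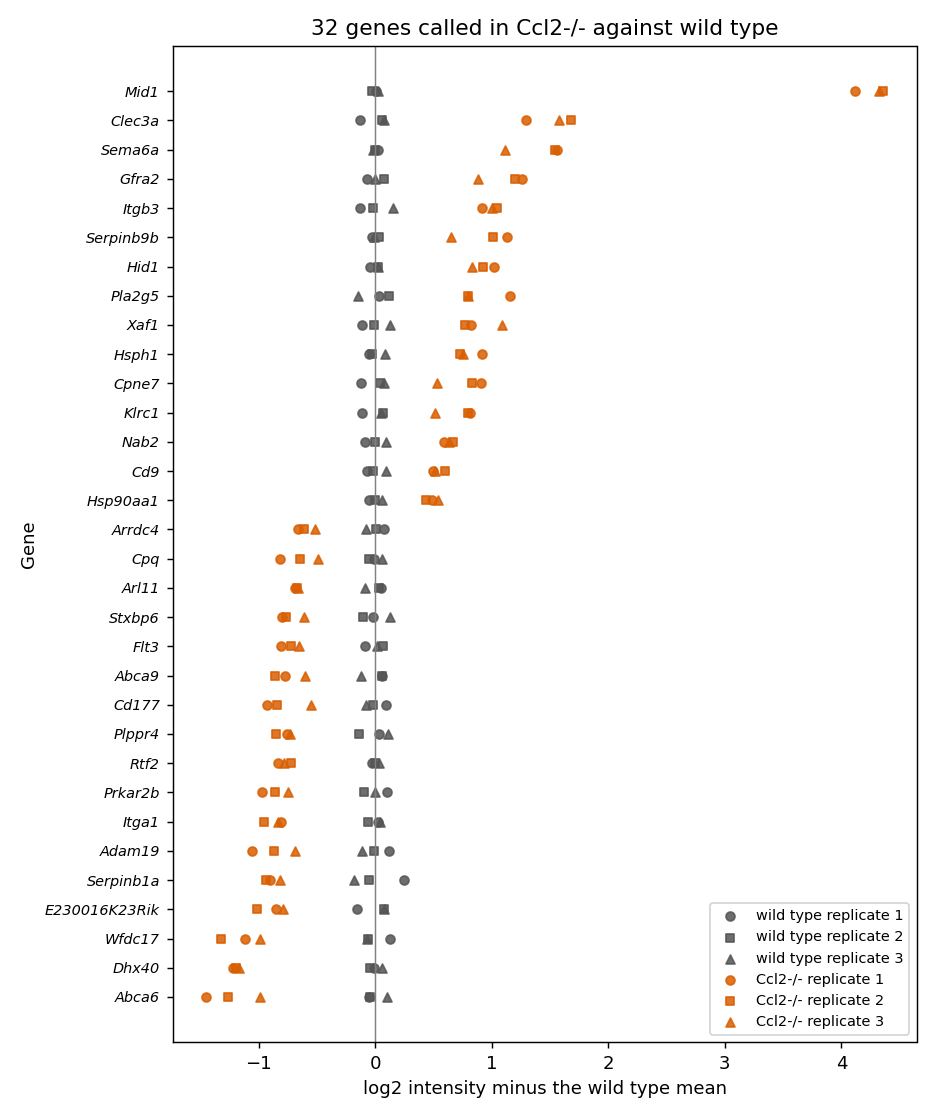
Each row is 1 of the 32 genes called in Ccl2-/- against wild type, and the x axis is the log2 intensity minus the wild type mean (grey, wild type arrays; orange, Ccl2-/- arrays; circle, square and triangle, replicates 1, 2 and 3). The 2 groups do not overlap in any of these genes, and Mid1 lies apart at 4.27.

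Mid1, which encodes a microtubule-bound ubiquitin ligase, had a log2 intensity of 12.28, 12.51 and 12.48 in the Ccl2-/- arrays. It was 8.16, 8.13 and 8.18 in wild type and 8.52, 8.38 and 8.07 in Ccr2-/-. The Ccl2-/- arrays were far above all others while wild type and Ccr2-/- overlapped, a difference from wild type of 19.2-fold (log2 change 4.27, standard error 0.12, limma adjusted p = 3.18e-06; 4.15 with centring). MID1 is known to act through the alpha-4 protein, encoded by Igbp1, on the phosphatase PP2A. Of 12 genes of MID1 and its PP2A partners, Mid1 alone was called. The homologue Mid2 was 6.99, 6.65 and 6.63 in Ccl2-/- and 6.52, 6.67 and 6.55 in wild type, which overlap. Igbp1 had 10.51, 10.44 and 10.56 in Ccl2-/- and 11.05, 10.90 and 10.75 in wild type, all below, but did not pass the test (log2 change −0.40, limma adjusted p = 0.115). The PP2A catalytic subunits Ppp2ca and Ppp2cb had log2 changes of −0.08 and 0.08, and 10 of the 12 genes were bounded within 1.5-fold, that is, had a 95% confidence interval that lay inside a 1.5-fold change either way.

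Genes were taken as particular to Ccl2-/- monocytes where they differed from the average of wild type and Ccr2-/- by limma at an adjusted p under 0.05 and every Ccl2-/- array lay beyond the other 6. The rule does not ask that Ccr2-/- be like wild type. In Sema6a, Wfdc17, Dhx40 and Rtf2 the Ccr2-/- arrays stood between the groups, away from wild type in the same direction. In Dhx40 and Rtf2 they lay nearer to wild type than to Ccl2-/-. All 3 Ccl2-/- arrays lay above the other 6 for 1.84% of genes and below them for 0.707%. Against that average 8 of 19938 genes were called (0.0401%), 5 higher (0.0251%) and 3 lower (0.015%), and in 7 of them the arrays were separate: Mid1, Sema6a, Itgb3 and Xaf1 above, and Dhx40, Wfdc17 and Rtf2 below. The other was Ccr2 itself, which was low in Ccr2-/- only (12.61, 12.73 and 12.93 in Ccl2-/-, 13.26, 13.02 and 12.99 in wild type, 9.41, 9.44 and 9.47 in Ccr2-/-). At an unadjusted p under 0.05 1780 genes differed from the average (8.93%). Directly against Ccr2-/-, 3.6% of genes were called, 2.87% higher and 0.732% lower in Ccl2-/-.

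Dhx40, a DEAH-box RNA helicase, had 8.66, 8.68 and 8.70 in Ccl2-/-, 9.86, 9.83 and 9.94 in wild type and 9.61, 9.54 and 9.52 in Ccr2-/-. The 3 Ccl2-/- pools were alike to within 0.05 and lay well below the rest, at 0.436-fold of wild type (limma adjusted p = 0.000271). Of the 16 DEAH-box helicases measured, no other was called, and their median change was 0.03. Rtf2, which acts at stalled replication forks, had 11.18, 11.29 and 11.23 against 11.98, 12.01 and 12.04 in wild type and 11.79, 11.81 and 11.91 in Ccr2-/- (0.582-fold of wild type, limma adjusted p = 0.00586). No other of 26 genes of fork protection was called. Wfdc17, which encodes a small secreted protein with a whey acidic protein domain, had 12.19, 11.98 and 12.32 in Ccl2-/-, 13.44, 13.25 and 13.24 in wild type and 12.70, 12.70 and 12.76 in Ccr2-/-. The Ccl2-/- arrays were lowest, the Ccr2-/- arrays stood between, and the fall from wild type was to 0.452-fold (limma adjusted p = 0.00586).

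Sema6a, a transmembrane semaphorin, had 9.86, 9.84 and 9.41 in Ccl2-/-, 8.32, 8.30 and 8.27 in wild type and 9.29, 9.30 and 9.14 in Ccr2-/-. It was highest in Ccl2-/-, 2.65-fold over wild type (limma adjusted p = 0.00586), but the direct difference from Ccr2-/- did not pass (log2 difference 0.46, limma adjusted p = 0.0812). Of 20 semaphorins no other was called. Xaf1, an interferon-inducible gene whose product opposes the apoptosis inhibitor XIAP, had 11.02, 10.96 and 11.28 in Ccl2-/-, 10.08, 10.18 and 10.32 in wild type and 9.90, 9.62 and 9.60 in Ccr2-/-. It rose 1.85-fold (limma adjusted p = 0.0413), while the 26 interferon-stimulated genes to which it belongs had a median log2 change of −0.15 (−0.26 with centring) and Xaf1 was the only one called.

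Itgb3, the beta subunit of the vitronectin receptor and of the platelet fibrinogen receptor, had 10.73, 10.86 and 10.82 in Ccl2-/-, 9.69, 9.80 and 9.97 in wild type and 9.71, 9.75 and 9.45 in Ccr2-/-. It rose 1.98-fold (limma adjusted p = 0.0141; 0.0654 with centring), and wild type and Ccr2-/- overlapped. The platelet partner Itga2b was 8.71, 8.62 and 8.42 against 8.58, 8.62 and 8.47, which overlap, and Pf4, a chemokine of platelet granules, was 8.28, 8.39 and 8.02 against 8.10, 8.35 and 7.80. Of the 10 platelet genes measured, Itgb3 was the only one called. Their summed linear intensity was 4776 to 5730 in Ccl2-/- and 3873 to 4402 in wild type. This sum counts Itgb3 itself, so that it does not show whether the other platelet genes rose. The part of platelets in the rise of Itgb3 was not tested.

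In the test against the average, Mid1 and Dhx40 passed under each of 20 alternatives, array weights aside, with adjusted p of at most 0.0382. Without Ccl2-/- replicate 2 the adjusted p was 0.0624 for Itgb3, 0.056 for Xaf1, 0.228 for Sema6a and 0.0624 for Wfdc17, and without Ccr2-/- replicate 2 that of Xaf1 was 0.0527. Sema6a and Wfdc17 also missed the threshold without any 1 array of wild type (0.131 to 0.149 and 0.0587 to 0.0648) or of Ccr2-/- (0.138 to 0.144 and 0.0829 to 0.0961). With centring and without Ccl2-/- replicate 2 the adjusted p was 0.115 for Rtf2, 0.253 for Itgb3, 0.246 for Xaf1, 0.0817 for Sema6a and 0.15 for Wfdc17, and with centring and without replicate 3 it was 0.101 for Itgb3 and 0.0708 for Xaf1.

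**Figure D3:**
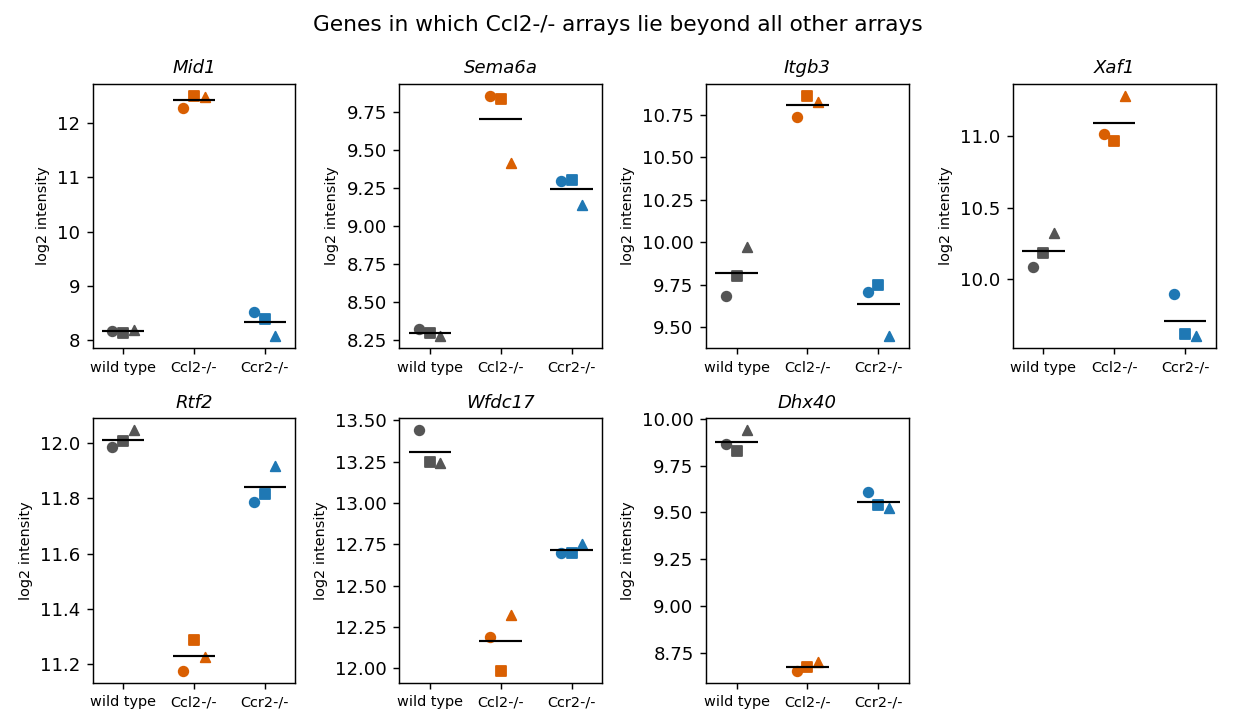
Log2 intensity (y axis, a separate range for each gene) of the 7 genes with all Ccl2-/- arrays beyond the other 6 and a called difference from their average, in the 3 genotypes (x axis). Points are arrays, with circle, square and triangle for replicates 1, 2 and 3, and bars are group means. The Ccl2-/- arrays lie above all others for Mid1, Sema6a, Itgb3 and Xaf1 and below them for Rtf2, Wfdc17 and Dhx40. For Sema6a, Wfdc17, Dhx40 and Rtf2 the Ccr2-/- arrays lie between.

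The other 14 falls follow by role. Abca6 and Abca9, neighbouring transporters of the ABC subfamily A, were the only ones called of 16 measured. Abca6 had 8.13, 8.32 and 8.59 against 9.52, 9.54 and 9.68 in wild type (0.425-fold, limma adjusted p = 0.00857). Abca9 had 10.81, 10.72 and 10.98 against 11.65, 11.64 and 11.46 (0.597-fold, limma adjusted p = 0.0413). Both were lower in every Ccr2-/- array than in any Ccl2-/- array, at 7.48 to 7.61 and 9.52 to 9.75. Itga1, the alpha subunit of a collagen-binding integrin, had 9.92, 9.78 and 9.89 against 10.75, 10.66 and 10.77 (0.549-fold, limma adjusted p = 0.00555), the only one called of 18 alpha subunits.

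Serpinb1a, which encodes an inhibitor of neutrophil elastase, fell to 0.541-fold, from 8.55 to 8.98 in wild type to 7.79 to 7.91. Serpinb9b, of the same clade and close to the granzyme inhibitor Serpinb9, moved the other way, from 11.38 to 11.45 in wild type to 12.06 to 12.55 (1.9-fold, limma adjusted p = 0.0334). They were the only ones called of 39 clade A and B serpins, whose median change was 0.12. Adam19, a membrane metalloprotease, had 8.77, 8.96 and 9.14 against 9.95, 9.82 and 9.72 (0.546-fold), the only one called of 34 ADAM proteases. Cpq, a secreted carboxypeptidase, fell to 0.636-fold. The surface proteins Cd177 and Flt3, the latter the receptor of the growth factor FLT3 ligand, fell to 0.583-fold and 0.604-fold. Flt3 was 8.20, 8.29 and 8.36 in Ccl2-/-, 8.92, 9.08 and 9.03 in wild type and 8.21, 8.40 and 8.15 in Ccr2-/-, so that the arrays of both knockouts overlapped.

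Prkar2b, a regulatory subunit of protein kinase A, had 9.27, 9.37 and 9.49 against 10.34, 10.14 and 10.23 (0.55-fold, limma adjusted p = 0.0334) and was the only one called of 22 genes of cAMP and protein kinase A signalling. Plppr4, a membrane protein related to the lipid phosphatases, Stxbp6, which binds SNARE proteins, the small GTPase Arl11 and the arrestin-like Arrdc4 fell to between 0.583-fold and 0.661-fold. A gene with a predicted name, 1 of the 17, fell to 0.54-fold. The adjusted p of these 5 genes lay between 0.0102 and 0.0413.

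The other 11 rises included Serpinb9b, given above, and the chaperones Hsph1 and Hsp90aa1. Clec3a, a C-type lectin, had 8.99, 9.37 and 9.27 against 7.56, 7.75 and 7.77 in wild type (2.87-fold, limma adjusted p = 0.0206), the only one called of 33 Clec genes. Gfra2, the receptor of the neurotrophic factor neurturin, had 11.49, 11.43 and 11.11 against 10.17, 10.30 and 10.23 (2.16-fold, limma adjusted p = 0.00857). Pla2g5, a secreted phospholipase A2, had 9.5, 9.14 and 9.15 against 8.38, 8.47 and 8.20 in wild type and 8.41, 8.57 and 8.47 in Ccr2-/- (1.88-fold of wild type, limma adjusted p = 0.0334). Clec3a and Pla2g5 lay above all 6 other arrays, but their test against the average of wild type and Ccr2-/- just missed the threshold (limma adjusted p = 0.0508 for both).

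Hid1, which acts in the making of secretory granules, rose 1.9-fold, and Cpne7, a calcium-dependent membrane-binding protein, 1.69-fold. Klrc1, the inhibitory NK cell receptor subunit NKG2A, had 11.93, 11.91 and 11.62 against 10.99, 11.18 and 11.16 (1.64-fold, limma adjusted p = 0.0493; 0.0681 with centring). Cd9, a tetraspanin found on Ly-6Clo monocytes, rose 1.45-fold and Nab2, a corepressor of the EGR transcription factors, 1.55-fold; with centring their adjusted p was 0.224 and 0.15.

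Called only with centring were 5 falls, of Cxcl9, Wfdc18, Slpi, Cd33 and Mfsd7a, and 1 rise, of F2rl2. Cxcl9, a chemokine induced by interferon gamma, had 8.55, 8.22 and 8.48 against 9.5, 9.76 and 9.19 before centring and its adjusted p was 0.0537 without and 0.0105 with it. Slpi and Wfdc18 encode further proteins with whey acidic protein domains, and their log2 changes with centring were −0.90 and −0.96. Cd33, a sialic acid-binding receptor of myeloid cells, and the membrane transporter Mfsd7a had centred changes of −0.73 and −0.68. F2rl2, the protease-activated receptor PAR3, had 10.58, 10.49 and 10.09 against 9.42, 9.75 and 9.40 (centred change 0.75). In the deposited values these 6 genes also lay wholly on one side of wild type, at adjusted p of 0.0514 to 0.0731. The 12 genes called only without centring were Hsp90aa1, Cd9, Nab2, Klrc1, Itgb3 and Xaf1 among the rises and Adam19, Prkar2b, Cd177, Stxbp6, Cpq and Arrdc4 among the falls, at centred adjusted p of 0.0507 to 0.249.

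Of the 32 called genes 9 lay on chromosome 11, which also carries Ccl2 and holds 1563 of the genes tested (7.84%). Among the rises they were Itgb3, Xaf1 and Hid1, and among the falls Abca6, Abca9, Adam19, Dhx40, Wfdc17 and the gene with a predicted name. The probe set of Ccl2 itself had 9.87, 9.27 and 9.23 in Ccl2-/- and 8.90, 9.22 and 8.82 in wild type. The sources used here do not say whether the probes cover the deleted bases, so that this reading checks nothing.

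Most genes were close to wild type. The 95% confidence interval of the change lay inside 1.5-fold for 14769 genes (74.1%) as deposited and for 16486 (82.7%) with centring. In level group 10, the highest, this held for 94.8% of genes and in level group 1 for 57.9%. Even so, the 3 Ccl2-/- arrays lay wholly above the wild type arrays for 1880 genes (9.43%) and wholly below for 1856 (9.31%), 18.7% of genes together. With centring the counts were 1049 above (5.26%) and 1896 below (9.51%).

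Small differences can best be read in genes whose pools agreed closely. There were 1348 genes with a mean log2 intensity of at least 8 and a spread within genotypes in the lowest 10% of such genes (an SD of at most 0.0536). Their median change was 0.00, the middle 95% of the changes lay between −0.21 and 0.18, and 1346 were bounded within 1.5-fold. With centring the median was −0.11 and 1 gene, Dhx40, was called. The 2 called as deposited were Hsp90aa1, which rose, and Dhx40, which fell. The next by p among the rises were Fasn, the fatty acid synthase, at 10.43, 10.49 and 10.35 against 10.002, 10.09 and 10.03, the zinc transporter Slc39a13 at 10.85, 10.76 and 10.79 against 10.39, 10.43 and 10.50, the mitochondrial chaperonin Hspd1, and Rgs3, a regulator of G protein signalling, at 11.415, 11.43 and 11.43 against 11.17, 11.16 and 11.13. These 4 were 1.21- to 1.3-fold higher with no overlap, but at adjusted p of 0.0679 to 0.0954 (0.329 to 0.58 with centring) did not pass. The nearest falls were Dpy19l1, the mitochondrial carrier Slc25a35, the RNA ligase Rtcb and Sft2d2, at 0.79- to 0.795-fold. Their adjusted p was 0.0717 to 0.0835 (0.156 to 0.211 with centring), also with no overlap. The lack of overlap in these rises and falls adds little, because the genes were chosen for a small spread and then a small p. Of the 1348 genes, the Ccl2-/- arrays lay wholly above wild type for 296 (21.96%) and wholly below for 310 (22.997%). The shares were 9.43% and 9.31% over all genes, and 16.3% and 18.4% in the top 3 level groups. Choosing genes for a small spread makes overlap rarer in itself, so that the higher shares do not show more change.

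The heat shock chaperones, which fold proteins and rise together under stress, held 2 of the 15 rises. Hsph1, which encodes the HSP105 nucleotide exchange factor, had 10.66, 10.48 and 10.49 in Ccl2-/- against 9.69, 9.72 and 9.83 in wild type (1.74-fold, limma adjusted p = 0.0102; 0.0359 with centring). Hsp90aa1, the inducible HSP90, had 12.12, 12.07 and 12.17 against 11.58, 11.63 and 11.69 (1.4-fold, limma adjusted p = 0.0334; 0.249 with centring). In both genes the groups stood clearly apart, and the Ccr2-/- arrays were higher still at 10.93 to 11.05 and 12.36 to 12.41. Of 26 chaperone genes measured 2 rose (0.0752% of all genes rose) and none fell, and with centring Hsph1 alone was called. The Ccl2-/- arrays lay wholly above wild type for 13 (50%, beside 9.43% of all genes and 16.3% of those in the top 3 level groups) and wholly below for 2. With centring 4 lay above (15.4%, beside 5.26% of all genes) and 0 below. The median log2 change was 0.13, or 0.02 with centring, beside 0.08 and −0.03 over all genes. Below the threshold stood Hspa1a, an inducible HSP70 that has a near-identical copy in Hspa1b, at 10, 10.34 and 10.46 against 9.68, 9.44 and 9.56 (limma adjusted p = 0.0774), Dnajb4 (0.0753), Hspd1 (0.0753) and the HSP70-HSP90 adaptor Stip1 (0.0875). Hspa8, the constitutive HSP70, was 13.76, 13.65 and 13.72 against 13.77, 13.64 and 13.65, which overlap.

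Promoters are shown of the chaperone genes named above whose groups did not overlap, Hsp90aa1 aside, because heat shock factor binds inverted repeats of GAA. The windows run from 250 bases before to 50 after a start site (RefSeq, GRCm38.p6, all on the minus strand), and capitals mark matches to TTCNNGAA or GAANNTTC, which read the same on both strands and may overlap. Hsph1, at chr5:149636287-149636586, held 3 matches. Hspd1, at chr1:55087883-55088182, held 3. Dnajb4, at chr3:152193796-152194095, held 1 and Hspa1a, at chr17:34972107-34972406, held 1. Stip1, at chr19:7039977-7040276, held 0.
Hsph1: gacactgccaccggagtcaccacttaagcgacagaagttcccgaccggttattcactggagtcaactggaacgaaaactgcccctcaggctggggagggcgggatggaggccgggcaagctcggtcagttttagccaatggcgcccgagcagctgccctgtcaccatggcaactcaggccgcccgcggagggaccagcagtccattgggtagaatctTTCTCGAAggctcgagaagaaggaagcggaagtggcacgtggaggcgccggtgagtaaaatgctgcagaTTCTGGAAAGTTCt
Hspd1: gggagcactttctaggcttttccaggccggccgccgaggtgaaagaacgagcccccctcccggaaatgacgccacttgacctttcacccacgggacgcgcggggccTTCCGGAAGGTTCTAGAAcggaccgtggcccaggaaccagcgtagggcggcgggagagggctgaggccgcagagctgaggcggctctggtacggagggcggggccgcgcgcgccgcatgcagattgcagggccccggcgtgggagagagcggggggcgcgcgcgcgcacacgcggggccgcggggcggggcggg
Dnajb4: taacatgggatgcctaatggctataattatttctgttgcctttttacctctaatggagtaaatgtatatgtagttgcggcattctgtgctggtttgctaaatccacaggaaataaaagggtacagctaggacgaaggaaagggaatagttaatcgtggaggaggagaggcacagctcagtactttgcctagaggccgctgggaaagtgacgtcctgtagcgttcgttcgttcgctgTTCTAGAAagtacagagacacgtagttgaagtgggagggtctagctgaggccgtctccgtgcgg
Hspa1a: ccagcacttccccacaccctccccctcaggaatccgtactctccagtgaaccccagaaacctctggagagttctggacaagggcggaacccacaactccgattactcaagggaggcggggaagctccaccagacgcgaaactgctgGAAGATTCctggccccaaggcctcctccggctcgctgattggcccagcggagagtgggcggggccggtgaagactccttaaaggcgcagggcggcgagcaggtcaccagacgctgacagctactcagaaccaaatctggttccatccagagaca
Stip1: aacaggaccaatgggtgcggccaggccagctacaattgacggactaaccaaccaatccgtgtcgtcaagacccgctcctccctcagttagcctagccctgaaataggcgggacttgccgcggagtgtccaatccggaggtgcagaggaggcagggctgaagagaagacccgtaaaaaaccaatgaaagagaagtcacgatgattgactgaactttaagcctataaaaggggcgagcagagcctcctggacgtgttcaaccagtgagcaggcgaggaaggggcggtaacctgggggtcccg
At least 1 match stood in 15.1% of all 32851 promoter windows. Of the 22 measured chaperone genes that have a window, 11 had a match in at least 1 of their windows. A gene can have several windows, so that the share over windows and the count of genes are unlike measures. The 11 include Hspe1, whose window overlaps that of Hspd1 on the other strand and holds the same matches. The other window of Hspd1 and that of Dnajb4 at their second start sites held none. A match is a description of the letters only.

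Among 300 microRNA genes none was called, and the 3 Ccl2-/- arrays were wholly above for 19 (6.33%, beside 9.43%) and wholly below for 3 (1.0%, beside 9.31%), and with centring for 17 (5.67%, beside 5.26%) and 9 (3.0%, beside 9.51%). The smallest p was that of Mir212, which had 10.29, 10.17 and 10.06 in Ccl2-/- against 9.68, 9.70 and 9.64 in wild type (log2 change 0.50, limma adjusted p = 0.0637; 0.139 with centring). Mir132, its neighbour on chromosome 11, was looked at after the values were seen because the mature products share a seed, and had 7.97, 7.70 and 7.57 against 7.69, 7.93 and 7.68, which overlap. Their mature 3p sequences (RefSeq, GRCm38.p6) follow with the seed, bases 2 to 8, in capitals. The arrays read the gene's transcript, and the mature microRNA was not measured apart.
mmu-miR-212-3p: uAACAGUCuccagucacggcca
mmu-miR-132-3p: uAACAGUCuacagccauggucg

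Lists of cell type markers were read as the makeup of the pools. In such bulk samples fewer cells of a type and less RNA per cell cannot be told apart. The 19 pan-monocyte genes measured were well expressed in all arrays, with a summed linear intensity of 133424 to 145787 in Ccl2-/- and 140949 to 145813 in wild type, and 17 of them were bounded within 1.5-fold. Of the 12 Ly-6Chi monocyte genes, Cd177 fell and 9 lay wholly below wild type (0.0853% of all genes fell, and 9.31% lay below). Their median log2 change was −0.60, or −0.72 with centring, and their summed intensity was 36698 to 44009 against 50189 to 61949. F13a1, coagulation factor XIII, had 12.48, 12.34 and 12.56 against 13.11, 12.99 and 12.90 (limma adjusted p = 0.0689), and Mgst1, a glutathione transferase, 10.85, 10.86 and 11.13 against 11.76, 11.57 and 11.51 (0.0627). Klf4, a transcription factor of these cells, overlapped, at 10.97, 11.10 and 11.32 against 11.16, 11.03 and 11.21. Of 17 Ly-6Clo genes Cd9 and Itgb3 rose and 9 lay wholly above wild type, with a median change of 0.28. These 9 were 52.9%, beside 9.43% of all genes and 16.3% of those in the top 3 level groups. With centring neither gene was called, 5 lay above (29.4%, beside 5.26%) and the median was 0.16. Itgb3 stands also in the platelet list, and the part of other cell types in these rises was not tested.

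NK cell genes were high in the CD11b-selected fraction of both genotypes. Of 22 measured, Klrc1 rose (0.0752% of all genes rose) and 19 lay wholly above wild type. These were 86.4%, beside 9.43% of all genes and 16.3% of those in the top 3 level groups. With centring 15 lay above (68.2%, beside 5.26% of all genes and 4.61% of those in the top 3 level groups). The summed intensity was 115804 to 139201 in Ccl2-/- against 93677 to 101732 in wild type. Ncr1, the activating receptor NKp46, had 13.16, 13.11 and 12.96 against 12.63, 12.73 and 12.70 (limma adjusted p = 0.0788), and the cytolytic pore protein Prf1 13.22, 13.21 and 12.98 against 12.60, 12.69 and 12.71 (0.0689). The methods define monocytes as NK1.1-negative, though no NK1.1 antibody is listed for the columns, and the part of NK cells in the rises of Klrc1 and of other named genes was not tested.

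Basophils and mast cells are rare granular cells that carry the high-affinity IgE receptor. None of 12 was called, 9 had a change below 0 and 3 above it. Wholly below wild type lay 7 (58.3%, beside 9.31% of all genes), and with centring 9 (75%, beside 9.51%). Their median log2 change of −0.74 (−0.85 with centring; −0.64 without Ccl2-/- replicate 1) was below that of the other cell type lists. Cd200r3, an activating receptor of these cells, had 7.21, 7.997 and 8.29 in Ccl2-/- and 9.68, 9.22 and 8.50 in wild type (limma adjusted p = 0.207). The granule protease Cpa3 had 8.74, 9.87 and 9.93 against 11.004, 10.53 and 10.14 (0.317), and Ms4a2, the beta chain of the high-affinity IgE receptor, 7.68, 8.18 and 8.46 against 9.56, 9.10 and 8.79 (0.243). The groups did not overlap, but wild type arrays differed from each other by more than 0.7 in these 3 genes. The same spread was seen in the transcription factor Gata2, at 8.98, 9.18 and 9.27 against 10.31, 9.90 and 9.49. Kit and Prss34, also in the list, overlapped. The summed intensity of the 12 genes was 4277 to 5341 in Ccl2-/- and 5820 to 9993 in wild type, which do not overlap, and 5403 to 8803 in Ccr2-/-.

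The T cell list had a median change of −0.22, but its defining genes differed within Ccl2-/-. Cd3e, a chain of the T cell receptor complex, had 8.94, 10.61 and 10.04 in Ccl2-/- and 10.80, 10.60 and 10.66 in wild type, and replicate 1 was also lowest for Cd3g and Cd4. For B cells, eosinophils, erythroid cells and dendritic cells the summed intensities of the 2 groups overlapped, and of these lists Flt3, of the dendritic cell list, was the only gene called. Neutrophil genes summed to 7579 to 8636 in Ccl2-/- and 8613 to 11156 in wild type, with none of 15 called and 3 wholly below (20%, beside 9.31% of all genes; 26.7% beside 9.51% with centring).

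**Figure D4:**
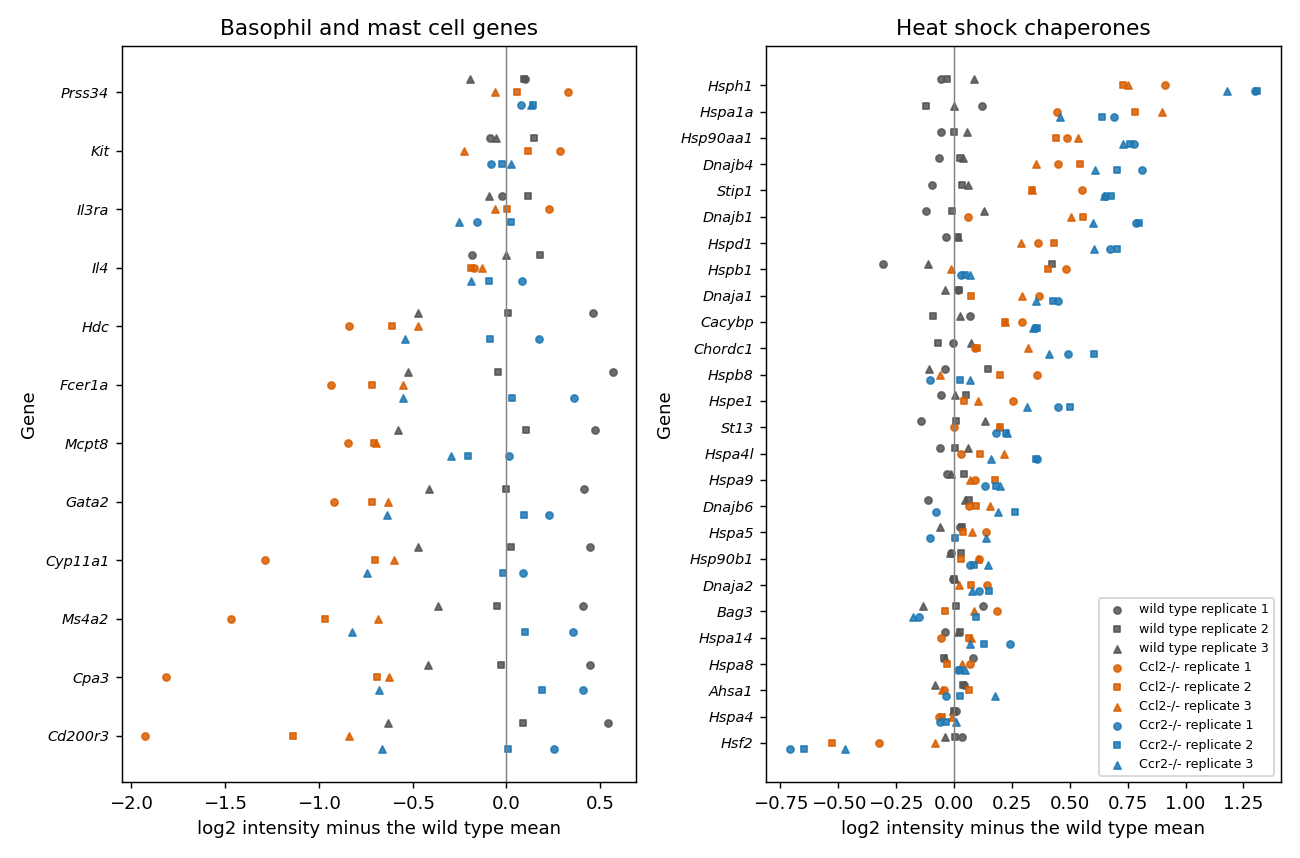
Basophil and mast cell genes (left) and heat shock chaperones (right), as log2 intensity minus the wild type mean (x axis) for each gene (y axis). Points are arrays of wild type (grey), Ccl2-/- (orange) and Ccr2-/- (blue), with circle, square and triangle for replicates 1, 2 and 3; for Cd200r3, Cpa3, Ms4a2 and Gata2 the orange points lie left of all grey points, and for Hsph1 and Hsp90aa1 right of them.

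Of CCR2 and its ligands none was called. Ccr2 lay below wild type in all 3 Ccl2-/- arrays, at 0.794-fold (limma adjusted p = 0.23; the values stand above). The ligand gene Ccl7 had 8.56, 8.18 and 8.04 against 8.16, 8.33 and 7.97, and Ccl12 7.32, 6.69 and 6.84 against 7.08, 6.95 and 6.84. Both overlapped. None of 21 chemokine receptors and none of 27 genes of their signalling was called, and 25 of the latter were bounded within 1.5-fold.

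Eicosanoid and phospholipase A2 genes, which make and sense prostaglandins and leukotrienes, had 1 rise, of Pla2g5, and no fall among 23 measured. Of the 23, 9 lay wholly below wild type (39.1%, beside 9.31% of all genes) and 3 wholly above (13.04%, beside 9.43%). With centring 8 lay below (34.8%, beside 9.51%) and 1 above (4.35%, beside 5.26%). The median change was −0.08. Among the synthesis genes Alox5 had 10.42, 10.73 and 10.90 against 11.04, 11.10 and 11.02 (limma adjusted p = 0.264), and the thromboxane synthase Tbxas1 9.47, 9.93 and 9.999 against 10.37, 10.49 and 10.19 (0.177). Among the receptors Ptger2 had 8.67, 8.79 and 8.99 against 9.43, 9.35 and 9.35 (0.0637), Ltb4r1 9.40, 9.31 and 9.53 against 9.98, 9.95 and 9.83 (0.167) and Cysltr1 9.54, 9.74 and 10.16 against 10.69, 10.44 and 10.20 (0.177). These 5 are among the 9 low members and none passed the test, while 11 of the 23 overlapped wild type and 9 had a change above 0. None was called among 17 genes of cholesterol synthesis, 20 of the cell cycle, 31 of the proteasome core or 22 immediate-early genes.

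Of 49 gene families, those of at least 5 genes with the lowest centred medians were the Schlafens, toll-like receptors, complex I subunits, and cytoplasmic and mitochondrial ribosomal proteins, and those with the highest the killer lectin-like receptors, granzymes, beta defensins, collagens and microRNA genes. Among these 10 families Klrc1 was the only gene called. The 23 killer lectin-like receptors, surface receptors of NK cells, had a median change of 0.48 (0.36 with centring), and 16 lay wholly above wild type (69.6%, beside 9.43% of all genes; 65.2% beside 5.26% with centring). The 9 Schlafens, interferon-responsive regulators of growth, had −0.27 (−0.38), with 5 wholly below (55.6%, beside 9.31%), but 2 with centring (22.2%, beside 9.51%). Slfn8 had 10.42, 10.61 and 10.96 against 11.28, 11.35 and 11.45 (limma adjusted p = 0.09), and Slfn5 11.90, 11.91 and 12.28 against 12.37, 12.39 and 12.50 (0.192). The 10 toll-like receptors, sensors of microbial products, had −0.17 (−0.28). Tlr6 had 10.89, 10.89 and 11.07 against 11.29, 11.23 and 11.25 (0.137), and Tlr2 10.28, 10.26 and 10.47 against 10.80, 10.59 and 10.67 (0.278).

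Of 58 cytoplasmic ribosomal protein genes 49 had a change below 0 and 9 above it, and none was called. Of the 58, 25 lay wholly below wild type and 1 wholly above (22 and 0 with centring), at a median change of −0.08 (−0.19), and 56 were bounded within 1.5-fold. Rps7 had 12.75, 12.77 and 12.68 against 12.91, 12.95 and 12.93, a change of −0.20. Of 77 mitochondrial ribosomal proteins 18 lay below (23.4%) and 3 above (3.9%), and with centring 21 (27.3%) and 5 (6.49%). Mrpl48 had 9.52, 9.76 and 9.75 against 10.15, 10.12 and 10.18 (limma adjusted p = 0.0916). Of 35 subunits of complex I of the respiratory chain 11 lay below and 5 above (15 and 1 with centring), and Ndufa9 had 9.74, 9.80 and 9.76 against 10.05, 10.06 and 10.003 (0.123). The median level was 12.58 for the cytoplasmic ribosomal genes and 10.27 for complex I. In the top 3 level groups 18.4% of all genes lay wholly below wild type and 16.3% wholly above, and 14.7% and 4.61% with centring.

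The other families with high medians had median levels of 7.34 to 8.62. Beta defensins had a median change of 0.20, but −0.05 without that array, and granzymes 0.21 and 0.04. Collagens went from 0.18 to 0.03 and microRNA genes from 0.18 to 0.05, and killer lectin-like receptors from 0.48 to 0.39. The 1027 olfactory receptors, which have no known role in blood, had 0.14 with and −0.16 without replicate 1.

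**Figure D5:**
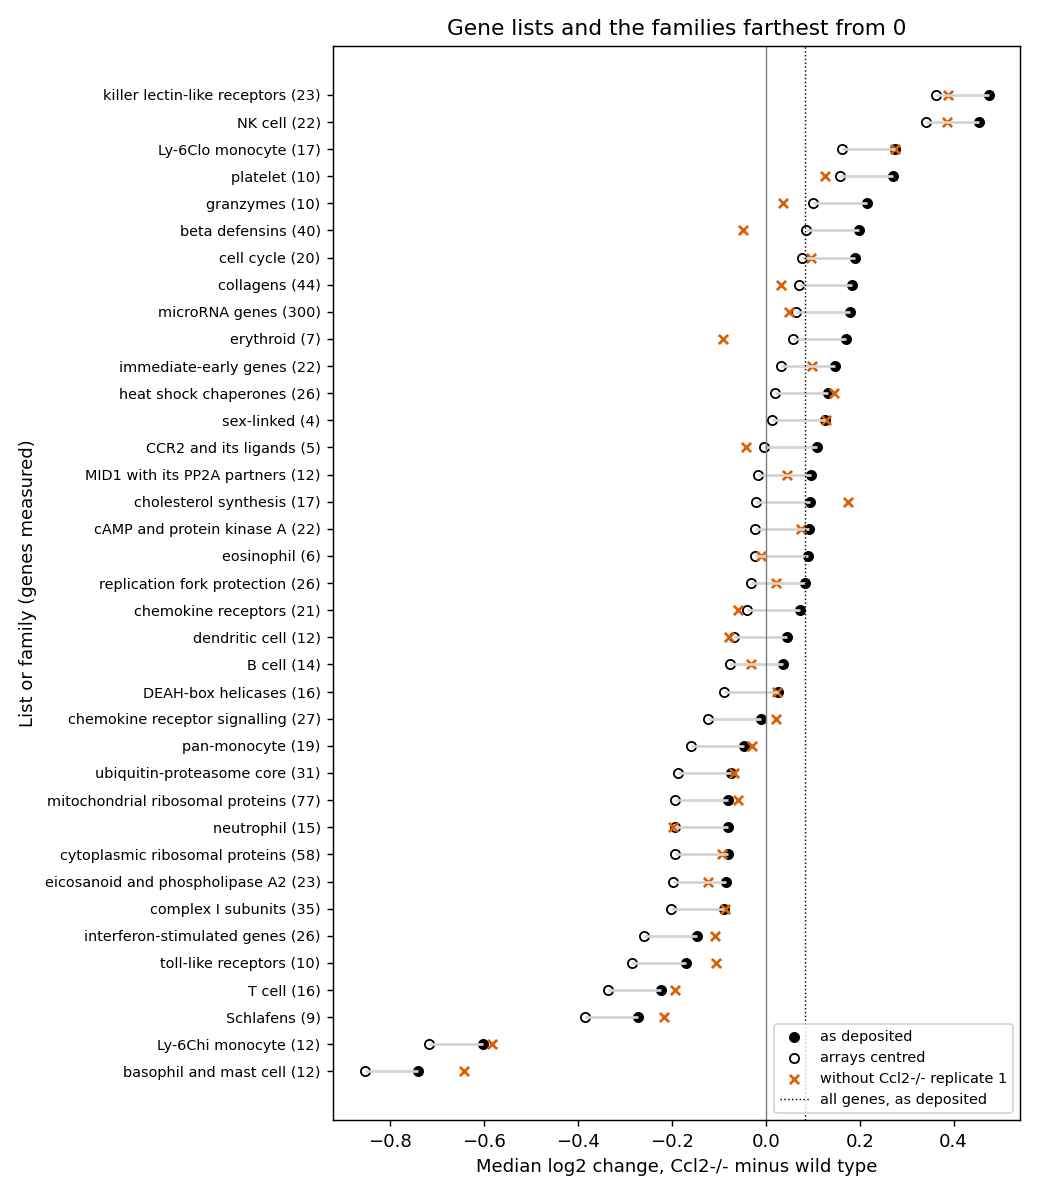
Median log2 change of Ccl2-/- against wild type (x axis) over the genes of each cell type and pathway list and of the 10 families farthest out (y axis, genes measured in brackets). Filled and open circles are the values as deposited and with centring, crosses those without Ccl2-/- replicate 1, and the dotted line the median of all genes at 0.08; the basophil and Ly-6Chi lists lie farthest left and the killer lectin-like receptors and NK cell genes farthest right.

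Of the 13723 transcript clusters that carry no gene symbol or several, 1 rose and 4 fell (0.0364%). Cluster 10567211, without a symbol, had 11.09, 10.76 and 10.98 in Ccl2-/- against 11.79, 11.81 and 11.76 in wild type (0.557-fold, limma adjusted p = 0.0371; 0.0382 with centring). The other 3 falls were clusters annotated with the same pair of symbols, which may read the same transcripts and are not independent, at 0.561- to 0.587-fold, and with centring their adjusted p was 0.147 to 0.151. Leaving out 1 array gave limma 0 to 17 such calls (980 clusters had an unadjusted p under 0.05 with all arrays). The count was 0 in the absence of wild type replicate 1 or 3, Ccl2-/- replicate 2 or Ccr2-/- replicate 1 or 2, 1 in that of wild type replicate 2, Ccl2-/- replicate 1 or Ccr2-/- replicate 3, and 17 in that of Ccl2-/- replicate 3.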

How the data were processed

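The authors hybridised RNA of monocyte pools to Affymetrix Mouse Gene 1.0 ST arrays and deposited linear intensity values computed with dChip, whose version, normalization and expression model the sources used here do not give. Values below 1 were set to 1 (19 values) and log2 was taken. Of 35512 transcript clusters, 21789 carried 1 symbol, and the cluster with the highest mean was kept for each of 19938 genes (999 had several clusters). The symbols come from the array annotation and were checked against the RefSeq gene table. The 9 arrays were modelled by genotype with limma 3.58.1 under R 4.3.3. P values were adjusted by Benjamini-Hochberg over the 19938 genes, and a gene was called when its adjusted p was under 0.05. Fold changes are ratios of geometric means. The script was tested on simulated data, with 50 genes changed at each size. It recovered 2 of 50 at 1.2-fold, 28 at 1.5-fold, 43 at 2-fold and 46 at 3-fold, with 7 false calls. The simulated noise was independent between genes and alike in all genotypes, without the shift of Ccl2-/- replicate 1. The methods' limits of ratio and difference carry no test and were not used. Arrays have no read depth, and their number limits the precision.

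The comparison, the 76 lists and families and the naming rule were chosen with earlier results of these data known. Named were all called genes, up to 5 in each direction called only with centring, those particular to Ccl2-/-, the low-variance genes with the smallest p, and, of lists and families, members called or else the 2 with the smallest p. Further members of lists, and Mir132, were named after their values were seen. Alternatives were centring, quantile normalization, a filter at a mean intensity of 100, an intensity trend (also with centring), an offset of 50, the mean of a gene's clusters, only the 6 arrays compared, array weights, a block for replicate number, leaving out each array, and unadjusted p. Centring with 6 arrays or without single Ccl2-/- arrays was added after seeing the data.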

Additional observations from a re-analysis of the deposited data

Results flagged for a closer look

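Cluster 10608711, which carries no gene symbol and so stood outside the comparison of named genes, had log2 intensities of 12.63, 12.82 and 12.69 in Ccl2-/-, 10.90, 10.94 and 10.86 in wild type and 12.08, 12.05 and 11.45 in Ccr2-/-. Its log2 change of 1.81 against wild type (3.51-fold, limma adjusted p = 0.0242, or 0.0496 with centring) exceeded the spread of the control arrays. The call of this cluster was lost with the replicate block. It was also lost when any 1 wild type array, Ccl2-/- replicate 2, or Ccr2-/- replicate 1 or 2 was left out.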

How the results depend on the processing

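Each of the 32 called genes kept its direction in the 23 alternative fits. This was all but fixed, because the Ccl2-/- and wild type arrays overlapped in none of them. The count of genes called against wild type was 62 with quantile normalization, 366 with a trend of variance on intensity, 105 after adding 50, 2 with 6 arrays, 6497 with array weights, 7 with the replicate block and 2613 at an unadjusted p under 0.05, and 6 to 476 when 1 array was left out. Added after seeing the data, centring with 6 arrays gave 2, and centring without 1 Ccl2-/- array gave 63, 5 and 468 for replicates 1, 2 and 3. Against the average the counts were 15 with the trend, 7743 with array weights, 3 with the replicate block and 1780 unadjusted, 4 to 13 when 1 array was left out, and 20 and 3 with centring and without Ccl2-/- replicate 1 or 2. Unnamed clusters numbered 2 with centring, 2 with centring and trend, 13 with the trend, 8 with the offset, 1 with 6 arrays, 0 by limma with array weights, 0 by limma with the replicate block, 980 unadjusted and 0 to 17 when 1 array was left out. Array weights gave Ccl2-/- replicate 2 a weight of 45.1 and replicate 1 a weight of 0.0887. Genes bounded within 1.5-fold numbered 12440 to 18235 over all alternatives. The deviations of same-numbered wild type and Ccl2-/- pools from their group means had r of 0.34, −0.18 and 0.56 for numbers 1, 2 and 3. Differently numbered pools had r of −0.69 to 0.56. Deviations from a group mean are tied together within the group, so that these r cannot show whether same-numbered pools were handled together. The labels give only a replicate number, and the replicate block was not used as the main design. Under it, the adjusted p against the average was 0.0597 for Itgb3, Rtf2, Sema6a and Xaf1 and 0.0717 for Wfdc17. The cause of these differences between settings was not tested.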
